A study of Drosophila melanogaster with 6 samples.

Results

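The genes of light detection in the fly eye were followed in mushroom body output neurons, which are brain neurons and not photoreceptors. A list of 36 genes for rhodopsins, arrestins, phototransduction enzymes, channels and photoreceptor structure was matched by gene symbol to the authors' deposited table of 17117 genes, and all 36 were found. By textbook expression, 21 are eye-restricted, with adult expression in the head mainly in photoreceptors, ocelli or lens. Another 12 are brain-expressed, since adult brain neurons also use them. The remaining 3 (ninaB, ninaD and santa-maria) serve carotenoid uptake and cleavage outside photoreceptors and are called retinoid genes here.

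Messenger RNA came from mated female flies, from the mushroom body output neurons named γ5β′2a, β′2mp and β′2mp_bilateral, in brains dissected 3 to 4 days after eclosion between ZT12 and ZT13.5 and sorted by FACS. All flies carried UAS-CD8::GFP together with R14C08-p65.AD and R15B01-GAL4.DBD, the split-GAL4 pair that the sample titles call MB011B, so the transgenes are active where both of these enhancer fragments are. In 3 libraries the flies also carried UAS-bantam_sponge, and in the 3 control libraries UAS-scramble_sponge, each opposite both driver parts. A sponge is a transcript with repeated binding sites that occupies a microRNA, here bantam, and there was no group without a sponge. How many brains or cells went into a library is not given in the sources used here.

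In fly photoreceptors, light changes a rhodopsin, which switches on a Gq protein. The Gq alpha subunit activates the phospholipase C norpA, and the breakdown of membrane phosphoinositide opens the cation channels trp and trpl. Calcium entering through them ends the response through protein kinase C (inaC), calmodulin, arrestins and the rhodopsin phosphatase rdgC, and the lipid is rebuilt by rdgA, CdsA and rdgB. Neurons of the brain use norpA, Galphaq and the lipid cycle for other receptors, while most rhodopsins, the eye arrestins and the scaffold inaD are known for the eye.

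The deposited values are for each gene a log2 fold change of bantam sponge against scramble sponge, a mean log2 CPM (counts per 1000000 reads) and an unadjusted exact-test p, with nothing per library. Reads are whole, so these 3 numbers fix the reads of many genes in each library, and they were recovered in that way for 22 of the 28 members that had any read. The recovered effective library sizes are 98.0, 43.6 and 5.31 megareads (1 megaread is 1000000 reads) for scramble sponge and 119, 43.8 and 8.18 megareads for bantam sponge. They are called the large, middle and small library of each genotype below, and reads are listed in that order. Which replicate number or sequencing platform belongs to which size is not known. A single read is worth 0.188 CPM in the small scramble sponge library and 0.0084 CPM in the large bantam sponge library. After 25 PCR cycles reads are not independent molecules, so limits from a count of 0 cover counting error only. In these bulk samples fewer cells with a transcript and less of it per cell cannot be told apart.

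Markers of the sorted cells were present in both genotypes. The glutamate transporter VGlut had mean levels of 1775 CPM in scramble sponge and 1550 CPM in bantam sponge. All 6 genes listed as pan-neuronal markers had reads, with summed mean levels of 3108 and 3076 CPM. One of these 6, Syb, is a synaptobrevin that is not specific to neurons. It was at 148 CPM in scramble sponge and near 0 in bantam sponge (the authors' deposited table gives an exact-test p of 0.00298, adjusted p of 1). The bantam sponge value of Syb, 0.0172 CPM, still includes the small count that the deposited fold adds to each genotype. The neuronal synaptobrevin nSyb, also among the 6, was at 1168 and 1437 CPM. Of 12 photoreceptor markers, all members of the list described here, 9 had reads and Rh3, Rh5 and Arr1 had none.

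No member passed the test for a difference between bantam sponge and scramble sponge. With Benjamini-Hochberg adjustment of the exact-test p-values in the authors' deposited table, 0 of 36 members reached an adjusted p under 0.05, and the background was 0% of 17117 genes. Before adjustment, 2 of the 28 members with reads had a p under 0.05, Arr2 and ninaD, both lower in bantam sponge, beside 4.18% of the 9286 genes with reads in either direction and 3.12% in that direction. No member was higher at that level, beside 1.06% of genes. Cam, CdsA and Ggamma30A, the most abundant brain-expressed members, had mean levels that differed by at most 1.32-fold between genotypes, with wide intervals. Of the 21 eye-restricted genes, 7 had no read, 12 had at least 90% of their CPM in 1 library, and trp and eys were read more widely. Such concentration was common in these data. Of all genes read in 1 genotype only, 90.6% had at least 90% of their CPM in 1 library, and for genes read in both genotypes this was not computed.

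Of the 21 eye-restricted members, 7 had no read in any library (Rh2, Rh3, Rh5, Arr1, ninaA, Gbeta76C and Pph13), beside 45.7% of all genes in the table. Of the other 14, the deposited fold was below 0 for 12 and above 0 for 2, while it was below 0 for 53.5% and above 0 for 46.5% of all genes with reads. The reads of 10 of the 14 lay in 1 genotype only (8 in scramble sponge, 2 in bantam sponge), beside 25.0% of genes with reads (15.0% in scramble sponge, 10.0% in bantam sponge). For 6 of the 14 they lay in 1 library only, beside 20.0% of genes with reads. At a mean log2 CPM from 0 to 6.1, where 22.4% of 3989 genes were read in 1 genotype only and 14.3% in 1 library only, this held for 7 and for 4 of the 10 eye-restricted members in that range. Of the 11 brain-expressed members with reads, 8 had a fold below 0 and 3 above, and only Rh7 was read in a single genotype. The brain-expressed members were also the more abundant, with a median mean log2 CPM of 6.63, against 2.95 for the eye-restricted members and 5.04 for all genes with reads.

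**Figure D1:**
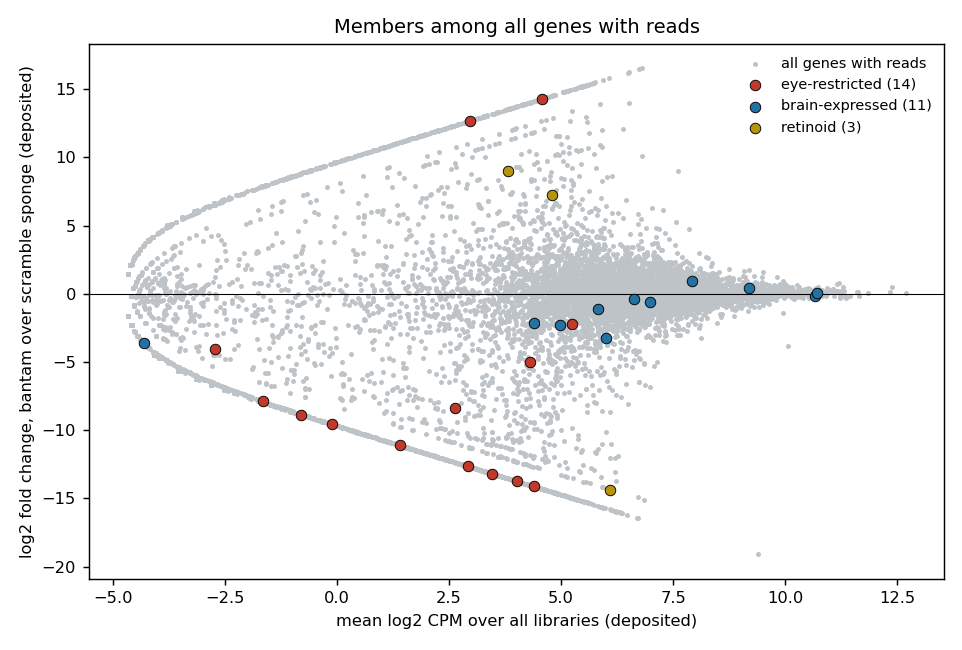
Log2 fold change against mean log2 CPM, both as deposited, for all 9286 genes with reads (grey) and the 28 members with reads (red eye-restricted, blue brain-expressed, yellow retinoid). Points on the outer curves are genes read in 1 genotype only, where 10 of the 14 eye-restricted members lie, and the brain-expressed members follow the narrow part of the cloud to the right.

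Among the visual pigments, ninaE, the major opsin of the outer photoreceptors, lies at chr3R:19886255-19888206 (minus strand). Its reads were 2, 0 and 517 in the scramble sponge libraries and 0 in each bantam sponge library. The 517 reads of the small scramble sponge library correspond to 97.4 CPM, and the other 5 libraries were at or near 0. With reads pooled, the bantam sponge level was therefore under 0.0175 CPM, the value of 3 reads over its 3 libraries. The pooled scramble sponge level of 3.53 CPM was at least 201-fold higher. That contrast rested on 1 library, since the scramble sponge mean without the small library was 0.0102 CPM. For ninaE the authors' deposited table gives an exact-test p of 0.0669 before adjustment.

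Rh6, the opsin of a subset of inner photoreceptors, had 352 reads (66.3 CPM), all in the same small scramble sponge library (the authors' deposited table gives an exact-test p of 0.12). Rh4, the ultraviolet opsin of other inner photoreceptors, had 384 reads (46.9 CPM), all in the small bantam sponge library (the authors' deposited table gives an exact-test p of 0.136). The smallest library of each genotype thus held nearly all its opsin reads, but of different opsins. Rh2, the opsin of the ocelli, and the inner photoreceptor opsins Rh3 and Rh5 had none. Rh7, an opsin known from brain pacemaker neurons, had 3 reads in total, in the middle scramble sponge library.

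Arrestins bind active rhodopsin and end its signal. Arr2, at chr3L:8647261-8648936 (minus strand), had 0, 61 and 662 reads in scramble sponge and none in bantam sponge. In CPM these are 0, 1.40 and 125, so the small library held 98.9% of the gene's CPM and the large library overlapped the bantam sponge libraries at 0. The authors' deposited table gives an exact-test p of 0.0445 for Arr2, and the adjusted p was 1. Arr1, the other eye arrestin, had no read.

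Of the G protein subunits, Galphaq, the alpha subunit that couples rhodopsin to the lipase, lies at chr2R:12612740-12623197 and had 14, 12722 and 291 reads in scramble sponge and 527, 169 and 238 in bantam sponge. In CPM these are 0.143, 292 and 54.8 against 4.43, 3.86 and 29.1. The middle scramble sponge library was the highest of all and the large scramble sponge library the lowest, so the groups overlapped. Its log2 fold change in the authors' deposited table was -3.22 (exact-test p = 0.272), with a 95% interval from -7.79 to 1.36. The scramble sponge mean fell from 116 to 27.5 CPM without the middle library, against 12.5 CPM in bantam sponge.

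The gamma subunit Ggamma30A was among the most abundant members, at mean levels of 1682 CPM in scramble sponge and 1541 CPM in bantam sponge, and its reads per library were not recovered. Its log2 fold change in the authors' deposited table was -0.13, with a 95% interval from -2.64 to 2.39. Gbeta76C, the beta subunit known from the eye, had no read. The Gq alpha and gamma subunits were therefore read in this sample and the eye beta subunit was not.

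**Figure D2:**
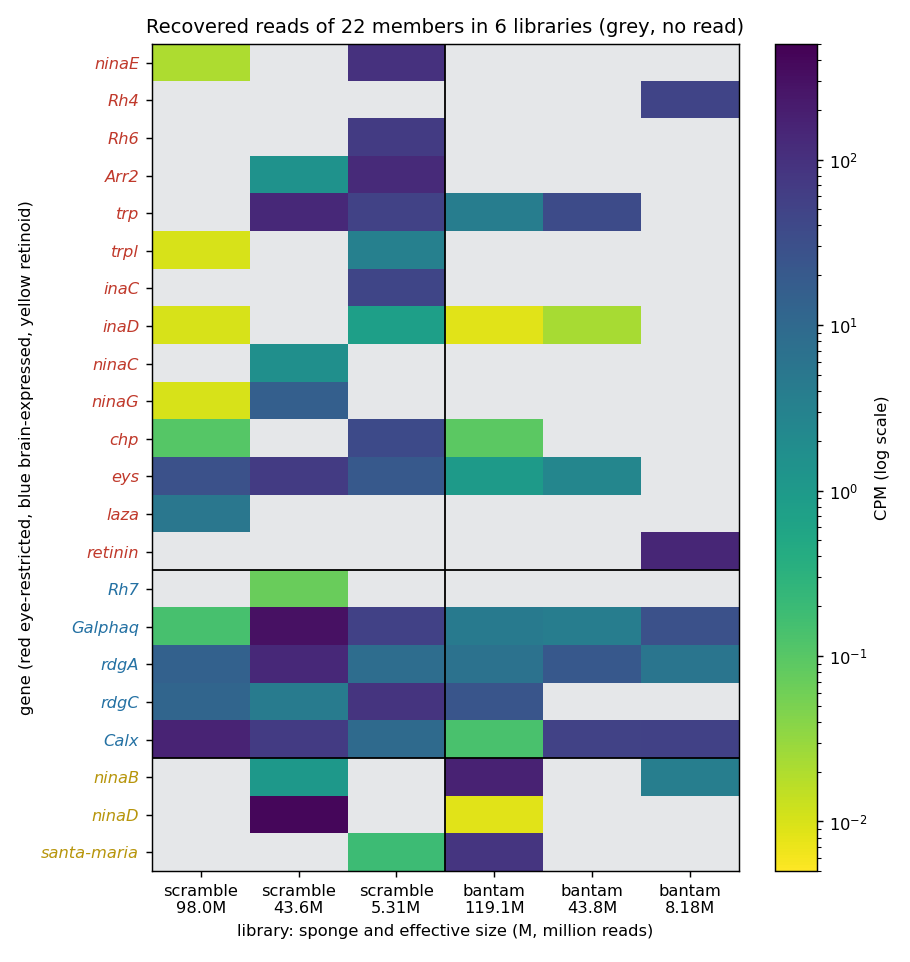
Recovered level of 22 members (rows, named in red for eye-restricted, blue for brain-expressed and yellow for retinoid) in each library (columns, with the effective size, M for 1 megaread), as CPM on a log colour scale, with grey for no read. Most eye-restricted rows are dark in a single column, 7 of them in the 5.31-megaread scramble sponge library, while Galphaq, rdgA and Calx are coloured in all 6.

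The enzymes of the lipid cycle were read in both genotypes except laza. norpA, the phospholipase C of the cascade, was at 112 CPM in scramble sponge and 85.9 CPM in bantam sponge, and rdgB, a lipid transfer protein, at 153 and 101 CPM. Their log2 fold changes in the authors' deposited table were -0.38 (95% interval -3.97 to 3.21) and -0.60 (95% interval -4.05 to 2.86). As ratios, these intervals run from 0.0639 to 9.26 for norpA and from 0.0603 to 7.25 for rdgB. inaE, a diacylglycerol lipase, was at 169 and 319 CPM, a log2 fold change of 0.92 in the authors' deposited table (95% interval -2.14 to 3.98).

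CdsA, the synthase of CDP-diacylglycerol (Cds in current annotation), was at 506 and 665 CPM, a log2 fold change of 0.40 in the authors' deposited table (95% interval -2.30 to 3.09). rdgA, the diacylglycerol kinase, had reads in all 6 libraries, with 1400, 5874 and 43 in scramble sponge and 767, 910 and 46 in bantam sponge. These are 14.3, 135 and 8.10 CPM against 6.44, 20.8 and 5.62 CPM, so only the middle scramble sponge library stood above the range of the others, and without it the scramble sponge mean fell from 52.4 to 11.2 CPM, beside 10.95 CPM in bantam sponge. The log2 fold change of rdgA in the authors' deposited table was -2.26 (95% interval -7.11 to 2.59). laza, a lipid phosphate phosphatase of photoreceptors, had 520 reads (5.31 CPM), all in the large scramble sponge library.

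Among the channels, trp, the main one opened by light, lies at chr3R:29914521-29920289 (minus strand). It had 0, 5909 and 278 reads in scramble sponge and 462, 1561 and 0 in bantam sponge, or 0, 136 and 52.4 CPM against 3.88, 35.7 and 0 CPM. Each genotype thus held 1 library without a read, and the groups overlapped. Its log2 fold change in the authors' deposited table was -2.25 (exact-test p = 0.565), with a 95% interval from -8.08 to 3.59. Without the middle scramble sponge library the scramble sponge mean of trp fell from 62.7 to 26.2 CPM, and without the middle bantam sponge library the bantam sponge mean fell from 13.2 to 1.94 CPM.

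The second channel, trpl, had 1, 0 and 18 reads in scramble sponge and none in bantam sponge. Calx, the sodium-calcium exchanger that clears calcium after the light response, had 15221, 2994 and 49 reads in scramble sponge and 16, 2269 and 438 in bantam sponge. Its levels spanned 9.23 to 155 CPM in scramble sponge and 0.134 to 53.5 CPM in bantam sponge. The lowest was the large bantam sponge library, the deepest of the series, and the 3 middle values (51.8, 53.5 and 68.7 CPM) came from both genotypes. The log2 fold change of Calx in the authors' deposited table was -1.14, with a 95% interval from -5.78 to 3.49. Without the large scramble sponge library the scramble sponge mean of Calx fell from 77.8 to 39.0 CPM, beside 35.2 CPM in bantam sponge.

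In the signalling complex around inaD, the eye protein kinase C inaC had 242 reads (45.6 CPM), all in the small scramble sponge library. inaD, the scaffold that holds trp, norpA and inaC together, had 7 reads in all, 1, 0 and 4 in scramble sponge and 1, 1 and 0 in bantam sponge. The counts do not separate the genotypes, and the gene lies opposite the ribosomal protein gene RpL23 with exons that overlap. ninaC, a myosin fused to a kinase, had 72 reads (1.65 CPM), all in the middle scramble sponge library.

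The calcium sensor Cam (calmodulin) had the highest mean level of the list, 1627 CPM in scramble sponge and 1732 CPM in bantam sponge. Its log2 fold change in the authors' deposited table was 0.09, with a 95% interval from -2.44 to 2.62. rdgC, a calcium-activated phosphatase that acts on rhodopsin, had 1143, 180 and 461 reads in scramble sponge and 2815, 0 and 0 in bantam sponge. In CPM these are 11.7, 4.13 and 86.9 against 23.6, 0 and 0. The large bantam sponge library was the only one of its genotype with reads and lay inside the scramble sponge range. Without the small scramble sponge library the mean of rdgC there fell from 34.2 to 7.90 CPM, beside 7.88 CPM in bantam sponge. The log2 fold change of rdgC in the authors' deposited table was -2.12 (95% interval -8.23 to 4.00).

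**Figure D3:**
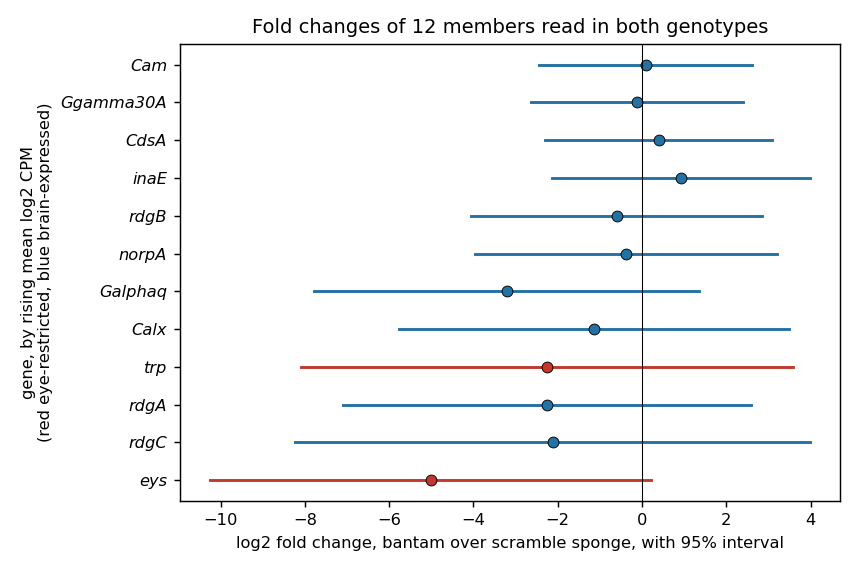
Log2 fold change (points, as deposited) with its 95% interval (lines) for the 12 members with at least 100 reads in each genotype, ordered by mean log2 CPM from eys to Cam (red eye-restricted, blue brain-expressed). Every one of the 12 intervals holds 0, and of 5 members with fewer reads in a genotype, not drawn, 4 had an interval without 0. Standard errors on the log2 scale are 2.33 to 3.12 for the 6 members with recovered reads and 1.28 to 1.83 for the 6 more abundant ones.

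Of the genes for opsin maturation, ninaG, an oxidoreductase that acts on the chromophore, had 1, 682 and 0 reads in scramble sponge and none in bantam sponge, and the rhodopsin chaperone ninaA had no read. The 3 retinoid genes were each read almost entirely in 1 large or middle library. ninaD, a scavenger receptor that takes up carotenoids, had 0, 17721 and 0 reads in scramble sponge and 1, 0 and 0 in bantam sponge. The middle scramble sponge library was at 407 CPM and the other 5 were at 0.0084 CPM or at 0. This gave the lowest p of the list in the authors' deposited table (exact-test p = 0.0111, adjusted p of 1), and without that library no scramble sponge read of ninaD was left. Its neighbour on the same strand of chromosome 2L is Arr1, which had no read.

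ninaB, the enzyme that cleaves carotenoid to retinal, went the other way, with 0, 47 and 0 reads in scramble sponge and 19427, 0 and 30 in bantam sponge. santa-maria, a scavenger receptor that acts with ninaB in neurons and glia, had 0, 0 and 1 reads in scramble sponge and 10067, 0 and 0 in bantam sponge. For both, the large bantam sponge library carried the signal, at 163 CPM for ninaB and 84.6 CPM for santa-maria, and the other bantam sponge libraries were at 3.67 CPM or lower. Their exact-test p-values in the authors' deposited table were 0.164 and 0.186. Without the large library the bantam sponge mean fell from 55.6 to 1.83 CPM for ninaB and from 28.2 CPM to 0 for santa-maria.

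Overlapping genes bear on some of these values, since the library kit as described does not mark strand. Exons of ninaB overlap those of Adgf-D (27.2 CPM in scramble sponge, 94.1 CPM in bantam sponge) and f-cup (197 and 117 CPM) on the opposite strand. Exons of santa-maria overlap CG5973, at 148 CPM in scramble sponge and near 0 in bantam sponge, the opposite direction to santa-maria. The reads of CG5973 were not recovered. Its bantam sponge value of 0.00236 CPM still includes the small count that the deposited fold adds to each genotype and is not a measured level. CdsA overlaps Uba2 on the opposite strand, and Galphaq and Cam overlap CG45086 and lncRNA:CR43900 on their own strand. Reads from the overlaps cannot be assigned to a strand here.

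Among the structural genes, eys, a secreted proteoglycan-like protein that opens the space between rhabdomeres, lies at chr2L:2311680-2358944. It had 2769, 2889 and 108 reads in scramble sponge and 112, 113 and 0 in bantam sponge. These are 28.3, 66.3 and 20.4 CPM against 0.941, 2.58 and 0 CPM, so every scramble sponge library lay above every bantam sponge library. Among the 22 members with recovered reads only eys was separated in this way. How many of all genes were was not computed, so the separation has no background to be set against and is description only. The log2 fold change of eys in the authors' deposited table was -5.02 (exact-test p = 0.176, adjusted p of 1), with a 95% interval from -10.3 to 0.22. Leaving out any 1 scramble sponge library left its mean between 24.3 and 47.3 CPM, beside 38.3 CPM with all 3. The bantam sponge mean of 1.17 CPM stayed between 0.47 and 1.76 CPM when 1 of its libraries was left out. Leaving out a library cannot undo a full separation, so these means add no support for it. CG9967, on the opposite strand with overlapping exons, had 2688 reads, all in the large bantam sponge library.

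chp (chaoptin), the adhesion protein of rhabdomere membranes, had 10, 0 and 197 reads in scramble sponge and 11, 0 and 0 in bantam sponge, or 37.1 CPM in the small scramble sponge library and at most 0.102 CPM elsewhere. retinin, a corneal lens protein at chr3L:16331933-16332789, had 1165 reads (142 CPM), all in the small bantam sponge library, where Rh4 was also read. For retinin the authors' deposited table gives an exact-test p of 0.0788, and the scramble sponge level was under 0.0204 CPM. Pph13 and gl, transcription factors that drive photoreceptor genes, had no read.

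Summed over the 14 eye-restricted members with reads, the level was 33.7, 221 and 448 CPM in the scramble sponge libraries and 4.92, 38.3 and 189 CPM in the bantam sponge libraries. The genotypes overlapped, and in each the small library was the highest. Different genes made up the sums, with eys giving 83.8% in the large scramble sponge library, trp 61.5% in the middle one, Arr2 27.8% in the small one and retinin 75.2% in the small bantam sponge library. Without the small scramble sponge library the scramble sponge mean of this sum fell from 234 to 127 CPM, and without the small bantam sponge library the bantam sponge mean fell from 77.5 to 21.6 CPM.

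**Figure D4:**
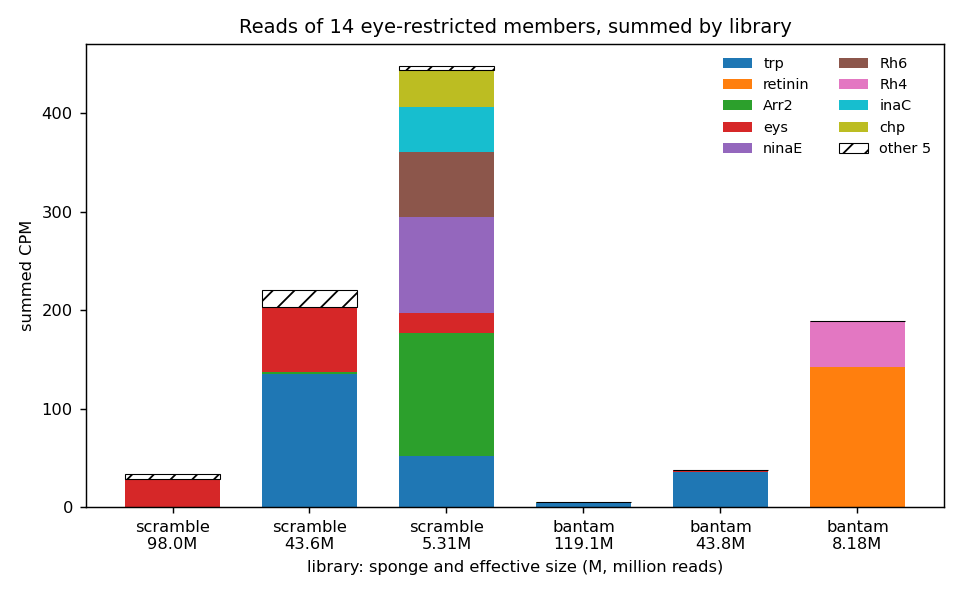
CPM of the 14 eye-restricted members with reads, stacked by gene in each library (bars from 0, labelled with the sponge and the effective size, M for 1 megaread). The small scramble sponge library reaches 448 CPM, mostly from Arr2, ninaE, Rh6, trp, inaC and chp with less from eys, trpl and inaD, and the small bantam sponge library 189 CPM from retinin and Rh4 alone.

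The libraries differed in which members they held. Of the 14 eye-restricted members with reads, 12 had at least 90% of their CPM in 1 library, and trp and eys did not. In the small scramble sponge library 9 eye-restricted members had reads, and it held that share for 7 of them (ninaE, Rh6, Arr2, trpl, inaC, inaD and chp). The middle scramble sponge library held it for ninaC and ninaG, the large one for laza, and the small bantam sponge library for Rh4 and retinin. The large and the middle bantam sponge library held it for none. Over all genes, 892 were read in 1 genotype only at a mean log2 CPM from 0 to 6.1, and 752 of them (84.3%) had at least 90% of their CPM in 1 library. These were spread as 121, 154 and 190 over the scramble sponge libraries and 142, 83 and 62 over the bantam sponge libraries. The eye-restricted members that met the same conditions were spread as 0, 1 and 4 and as 0, 0 and 2. For genes read in both genotypes, such as inaD and chp, this share was not computed.

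Markers of other cell types also differed between libraries, and their part in these results was not tested. The 6 hemocyte markers, all with reads, summed to mean levels of 3804 CPM in scramble sponge and 870 CPM in bantam sponge. Their folds were below 0 for 5 and above 0 for 1, which was Pxn, at 444 and 728 CPM. PPO2, a prophenoloxidase, was at 1989 and 142 CPM. PPO1, another prophenoloxidase, had all its reads in the small scramble sponge library (4007 CPM), while Hml, the defining marker of most hemocytes, had none there. The 6 glial markers, all with reads, summed to 1007 and 2013 CPM, with 5 folds above 0 and 1 below. That one was repo, the defining glial transcription factor, at 102 CPM in scramble sponge and 0.976 CPM in bantam sponge (the authors' deposited table gives an exact-test p of 0.0525). The 5 fat body markers summed to 175 and 232 CPM, with 2 folds above 0 and 3 below, and FASN1, which other tissues use too, was at 97.4 and 231 CPM of these sums. The yolk protein gene Yp1 was at 32.8 CPM in scramble sponge with no read in bantam sponge, and Yp3 at 30.4 CPM and near 0. For Yp1 and Yp3 the authors' deposited table gives exact-test p-values of 0.0335 and 0.0271. The reads of Yp3 were not recovered, and its bantam sponge value of 0.00641 CPM still includes the small count that the deposited fold adds to each genotype. Of 6 genes listed as pigment and cone cell markers Crys, Cralbp and Pph13 had no read. Pph13 drives photoreceptor genes, so its lack of reads does not bear on pigment or cone cells. The sums of 190 and 667 CPM came almost entirely from w, which is also a common marker of fly transgenes. The photoreceptor targets ort and HisCl1, histamine receptors, were read almost entirely in the large scramble sponge library (19.1 CPM) and only in the small bantam sponge library (209 CPM).

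Compared per exon length, the 3 highest members were brain-expressed, and below them the classes were mixed. Cam was at 289 CPM per kb of exon over both genotypes, CdsA at 225, Ggamma30A at 128, inaE at 34.2, rdgB at 13.7 and norpA at 11.9. Galphaq followed at 9.27 CPM per kb, Calx at 6.30, rdgC at 3.97, rdgA at 2.30 and Rh7 at 0.00286. The highest eye-restricted genes on this scale were retinin at 29.7, Arr2 at 13.6 and ninaE at 10.2 CPM per kb, each with at least 90% of its CPM in 1 library, and the lowest were inaD at 0.0569 and ninaC at 0.0508. The retinoid gene ninaD, at 37.9 CPM per kb, lay between Ggamma30A and inaE, ninaB at 12.9 lay between rdgB and norpA, and santa-maria was at 2.54, each again with at least 90% of its CPM in 1 library. For these eye-restricted and retinoid genes the order in the list is not settled by replicates.

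**Figure D5:**
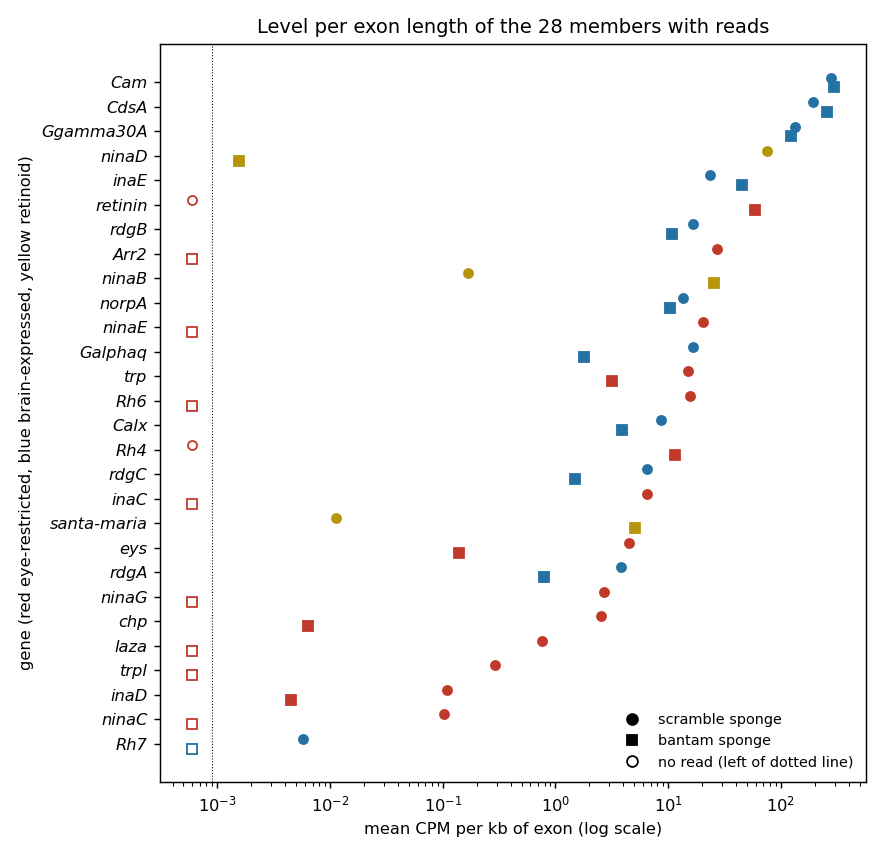
Mean level per kb of exon (log scale) of the 28 members with reads in scramble sponge (circles) and bantam sponge (squares), coloured as eye-restricted (red), brain-expressed (blue) or retinoid (yellow). Open symbols left of the dotted line mark genotypes with no read, and the genotypes lie close together for Cam, CdsA and Ggamma30A.

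Beyond the 36 members, 42 of 44 further genes of the cascade, of pigment and screening cells and of eye development were in the table, and 16 of them had no read. Of the 26 with reads, 15 had a deposited fold below 0 and 11 above. At an unadjusted p under 0.05, 0 were lower and 1 was higher, ebony (e), an enzyme that recycles histamine in glia, for which the authors' deposited table gives an exact-test p of 0.0367 (adjusted p of 1). Its 27905 reads were all in the large bantam sponge library (234 CPM). rtp, a retinophilin that works with ninaC, had 156 reads, all in the small scramble sponge library (29.4 CPM), where ninaE, Arr2 and inaC were also read. These 2 genes were chosen for naming after their values were seen.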

How the data were processed

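The members and gene lists were chosen with earlier results of these data known. Per the series design, 2 replicates were sequenced on a NextSeq and 1 on a HiSeq and aligned with STAR to dm6, and the submitters' processing notes also name Picard, HTSeq and edgeR without versions. The authors deposited log2 fold changes, mean log2 CPM and unadjusted exact-test p-values from edgeR, for 17117 genes, 7831 of them with no read. Benjamini-Hochberg and Holm adjustments were computed over all rows.

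Reads per library were computed here (Python 3.11.15, numpy 2.4.6, scipy 1.17.1, numba 0.67.0). Taking the defaults of that tool for the prior count, 2 in the mean and 0.125 in the fold, genes with 1 read in 1 library gave the 6 effective library sizes, which include any normalization factor, and a common dispersion of 4.504. Sets of whole reads that give a gene's mean log2 CPM were then searched, and the fold gave the dispersion. For genes read in 1 library the deposited p was an independent check. For other genes the set closest to the deposited p was kept, so where several sets met the mean the match in p is not independent. Of 1859 genes whole in 1 library of the genotype the fold points to, 1219 had a p under 1, and p was matched within 1e-08 (relative) for 1210 and within 1e-07 for all 1219. The number whole in a library of the opposite genotype was 0. Reads were accepted at a p difference under 1e-08 (1e-07 with reads in 1 library), with the next candidate at least 100 times farther. These limits were set after seeing results. Galphaq and ninaD were found only at a tolerance of 2e-08 on whole reads instead of 1e-08, and for Calx the next candidate was less than 1000 times farther. On simulated data, made with the same formulas, 40 of 40, 40 of 40 and 40 of 40 genes read in 1, 2 and 3 libraries and 14 of 15 read in all 6 were recovered, and 0 wrongly. The simulated levels were centred below the highest library levels of many members with recovered reads. These include Galphaq, Calx, rdgA and ninaD (292, 155, 135 and 407 CPM). They also include ninaB, retinin, trp, Arr2, ninaE, rdgC, santa-maria, Rh6, eys, Rh4, inaC and chp. The simulation therefore covers the levels of these genes only in part or not at all, and other numbers of libraries with reads were not simulated. For 6 members with higher counts (norpA, Ggamma30A, rdgB, inaE, CdsA and Cam) the reads were not recovered, and genotype means come from the deposited fold and mean. Other genes without recovered reads, such as Syb, Yp3 and CG5973, were treated in the same way. Such means still include the prior count, so their values near 0 are not measured levels.

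Intervals (95%) use the dispersion behind the deposited p and were given with at least 100 reads in each genotype. This minimum was set after the intervals had been seen, and it left out 5 of 17 members read in both genotypes, of which 4 had an interval without 0. The intervals are a normal approximation and not the authors' exact test. They can be narrower than that test implies, as for chp, ninaB and santa-maria, whose intervals left out 0 at exact-test p-values of 0.144, 0.164 and 0.186. The labels call the replicates biological without saying what was raised apart, so p-values measure the spread between these libraries, part of which may be technical. Genes were placed with the Ensembl release 115 annotation, on the assembly of dm6. All 36 members were named, by the rule set in the plan, in classes and roles from textbook knowledge.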

Additional observations from a re-analysis of the deposited data

How the results depend on the processing

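With Holm adjustment, or with Benjamini-Hochberg adjustment over genes with reads or over genes at or above a mean log2 CPM of 0, the number of members called stayed at 0, and at an unadjusted p under 0.05 it was 2. Members with a fold below 0 numbered 21 of 28, 16 of 23 at or above a mean log2 CPM of 0 and 13 of 19 at or above 3. Without the members whose class is doubtful, which are not named here, 9 eye-restricted members lay below 0 and 2 above, against 12 and 2 with all. For brain-expressed members, 3 lay below and 3 above, against 8 and 3 with all. Every member with reads left out in this way thus lay below 0, and the larger number of brain-expressed members below 0 rested on them. The median log2 fold change of -8.65 for eye-restricted members depends on the prior count. It became -6.33 with genes unread in 1 genotype set to their mean CPM over the pooled floor of 3 reads. That ratio mixes unlike measures and is not a strict limit. The median of brain-expressed members moved from -0.60 to -0.39, beside -0.13 for all genes with reads either way. Leaving out each library in turn (chosen after seeing the data), 9 to 12 eye-restricted members were lower in bantam sponge, with 9 lower and 3 higher without the small scramble sponge library and 0 higher without the small bantam sponge library. Means of CPM weigh libraries equally, and levels from pooled reads were 0.109 to 2 times as high, for inaC and laza. At the stricter search settings, reads of 20 or 21 members were recovered instead of 22. With at least 100 reads in each genotype (a minimum set after the intervals had been seen) 0 of 12 intervals left out 0, and at any number of reads 4 of 17 did. These were chp (-15.3 to -1.47, exact-test p = 0.144), ninaB (0.82 to 13.7, exact-test p = 0.164), ninaD (-21.9 to -6.85, exact-test p = 0.0111) and santa-maria (1.5 to 16.5, exact-test p = 0.186), as log2 intervals beside the p-values of the authors' deposited table, and only the p of ninaD was under 0.05 too. Leaving out a library in the exact test, or in the counts of brain-expressed members above and below 0, was not run, because the authors' dispersions could not be refitted and 6 of these members have no recovered reads. No paired analysis was possible because library sizes could not be tied to replicate numbers. Depth limits the small libraries, where 1 read is 0.122 CPM or more.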
